A study of Mus musculus with 18 samples.

Results

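Transcript levels of 40 genes for DNA repair and the DNA damage checkpoint were followed while 3T3-L1 cells became adipocytes. The genes were chosen by name, by the repair pathway in which each works, and all 40 were found among the 25209 genes listed in each library. 3T3-L1 is an established mouse fibroblast line, used as a model of preadipocytes, that accumulates fat droplets when given a hormone cocktail. Polyadenylated RNA was sequenced in 18 libraries, 3 from each of 6 groups, and levels are TPM, a share of all transcripts that is corrected for transcript length. Per the labels, cells in medium with 10% fetal bovine serum were held for 2 days past confluence. They then received 10 µg/mL insulin, 0.25 µM dexamethasone and 0.5 mM IBMX (a phosphodiesterase inhibitor) for 48 h, followed by 5 µg/mL insulin with the medium replaced every 2 days. The reference group is labelled Control, and the others are MCE1, MCE2, Day4, Day6 and Day8. The labels give these culture details alike for every group, Control included. They thus do not show whether Control cells had received the cocktail or when they were taken. The study's title speaks of mitotic clonal expansion, the rounds of division that precede differentiation, and MCE1 and MCE2 are 2 stages of it for which the labels give no hour. Day4, Day6 and Day8 are 4, 6 and 8 days after the differentiation stimuli, and whether these days count from the start or the end of the cocktail is not stated. All groups share the line and the medium, and the labels name no genetic change. The labels do not say whether replicates came from separate cultures, so the p-values measure the spread between these libraries, which may be technical.

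DNA is repaired by several machineries. Homologous recombination copies the intact sister chromatid after replication, through BRCA1, BRCA2 and their partners, and the Fanconi anaemia proteins clear crosslinks that block replication forks. Non-homologous end joining rejoins broken ends in any phase of the cell cycle, base excision repair removes damaged bases, and mismatch repair corrects copying errors. ATM and ATR are kinases that sense damage and signal through CHK1, CHK2 and p53. Many recombination, Fanconi and checkpoint genes are transcribed mainly in cycling cells. E2F factors, which activate or repress, the activator NF-Y and the repressor complex DREAM bind promoters of such genes.

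Promoters are shown for 4 members that fell from MCE1 to MCE2 and 2 not called in that step. The 4 fell most among members with a single entry in the RefSeq promoter table and a call that held under every alternative tried. The 2, Xrcc3 and Trp53bp1, had the highest MCE1 means among the members not called (16.8 and 21.9 TPM). Lower members not called, such as Fancg (8.94 TPM) and Msh3 (5.62 TPM), are thus not shown. The choice of promoters and the wider E2F motif were made after the values were seen. Each sequence is the 250 bases before the gene's start in that table (GRCm38.p6), 5′ to 3′ on the gene's strand. Capitals mark CCAAT (the NF-Y motif; ATTGG on the other strand), the CHR motif TTTGAA of DREAM, or an E2F motif (TTTCCCGC, TTTCGCGC, TTTGCCGC or TTTGGCGC), searched on both strands. Rad51ap1 lies at chr6:126939588-126939837 (minus strand), Fanca at chr8:123318577-123318826 (minus) and Bard1 at chr1:71102973-71103222 (minus). Fanci lies at chr7:79392088-79392337 (plus), Xrcc3 at chr12:111813880-111814129 (minus) and Trp53bp1 at chr2:121271408-121271657 (minus).
Rad51ap1: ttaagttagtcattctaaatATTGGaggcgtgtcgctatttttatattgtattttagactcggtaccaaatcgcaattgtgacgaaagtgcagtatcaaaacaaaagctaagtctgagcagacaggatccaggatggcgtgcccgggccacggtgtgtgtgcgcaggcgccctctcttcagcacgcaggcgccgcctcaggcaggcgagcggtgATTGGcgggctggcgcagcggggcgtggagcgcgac
Fanca: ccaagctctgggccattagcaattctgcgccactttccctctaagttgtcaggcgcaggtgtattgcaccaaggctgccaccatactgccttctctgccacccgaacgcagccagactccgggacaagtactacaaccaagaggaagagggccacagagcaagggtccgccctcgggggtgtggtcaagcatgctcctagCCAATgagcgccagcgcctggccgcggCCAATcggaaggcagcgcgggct
Bard1: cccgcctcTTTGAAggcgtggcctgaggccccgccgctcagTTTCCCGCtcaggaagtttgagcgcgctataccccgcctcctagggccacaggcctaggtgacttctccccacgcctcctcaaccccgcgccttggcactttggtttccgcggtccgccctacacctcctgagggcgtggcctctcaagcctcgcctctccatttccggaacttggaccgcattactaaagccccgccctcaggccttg
Fanci: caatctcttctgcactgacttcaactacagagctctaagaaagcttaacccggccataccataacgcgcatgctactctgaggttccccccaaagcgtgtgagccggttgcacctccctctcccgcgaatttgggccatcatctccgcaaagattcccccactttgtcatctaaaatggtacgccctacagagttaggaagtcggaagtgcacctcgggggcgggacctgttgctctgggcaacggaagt
Xrcc3: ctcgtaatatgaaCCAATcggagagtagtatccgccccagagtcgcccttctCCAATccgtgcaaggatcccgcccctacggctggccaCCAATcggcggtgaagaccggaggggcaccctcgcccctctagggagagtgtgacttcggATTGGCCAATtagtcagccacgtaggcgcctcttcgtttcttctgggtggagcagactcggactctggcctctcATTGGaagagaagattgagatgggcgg
Trp53bp1: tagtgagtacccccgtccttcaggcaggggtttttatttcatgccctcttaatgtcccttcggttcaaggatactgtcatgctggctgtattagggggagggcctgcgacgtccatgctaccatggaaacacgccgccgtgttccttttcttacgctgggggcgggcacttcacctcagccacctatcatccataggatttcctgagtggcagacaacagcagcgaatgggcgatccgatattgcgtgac

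Rad51ap1 held 2 ATTGG matches, beginning 230 and 36 bases before the start, and Fanca held 2 CCAAT matches, beginning 50 and 23 bases before it. Bard1 held 1 TTTGAA and 1 TTTCCCGC, beginning 242 and 209 bases before the start. Xrcc3, which rose over the course, held 6 CCAAT matches, of which a neighbouring pair abuts as ATTGGCCAAT. Fanci and Trp53bp1 held no match to these letters in this window. The table held 31 of the 40 members. Over the 250 bases, CCAAT occurred in 18 of 31 members (58.1%), against 41.05% of the 9801 tested genes that the table held. The wider E2F motif occurred in 7 of 31 (22.6%), namely Bard1, Brca2, Chek2, Fancg, Mdc1, Msh3 and Xrcc6, against 3.97% of tested genes. The stricter pair TTTCGCGC and TTTGGCGC occurred in 1 member, Msh3, against 1.52%. TTTGAA occurred in 1 of 31 (3.23%) against 12.5%, and GGGCGG (the GC box) in 19 of 31 (61.3%) against 63.5%. The members that hold a motif include both falling members and members that were not called, such as Fancg and Msh3.

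Cell markers were checked before the results. The summed level of 8 adipocyte markers was 158 to 173 TPM in Control, with Adipoq, Plin1 and Retn at 0, and 26683 to 29539 TPM at Day8. The 8 fibroblast markers summed to 13529 to 14027 TPM in Control and 8872 to 11885 TPM at Day8. The 8 macrophage markers summed to at most 20.8 TPM, with Ptprc, Adgre1 and Itgam at 0 in all 18 libraries, and the endothelial and epithelial markers to at most 1.05 and 4.09 TPM. In bulk RNA, fewer cells of a type and less RNA per cell cannot be told apart, and TPM gives shares, so a fall is relative to all other transcripts. Sequencing depth is unknown.

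Of the 40 members, 39 reached 1 TPM in at least 3 libraries and were tested with limma on log2(TPM + 1), together with 12695 genes in all. The exception was Rbbp8, which encodes the end resection factor CtIP and lay between 0 and 1.81 TPM. A gene was called when its Benjamini-Hochberg adjusted p over all tested genes was under 0.05. The F test over the 6 groups called 35 of 39 members, where 87.6% of all genes were called. Fancc, Fancg, Msh3 and Xrcc1 were not called (adjusted p = 0.753, 0.121, 0.275 and 0.245). By their listed positions 11 members overlap another gene, which lies on the opposite strand for all but Rad54b and Parp1; among them are Rad54l (Lrrc41), Rad54b (Fsbp), Xrcc3 (Klc1), Fanca (Zfp276), Fancd2 (Fancd2os), Fanci (Polg), Fancl (Vrk2), Msh6 (Fbxo11), Trp53bp1 (Tubgcp4) and Parp1 (Mir6904). The kit did not keep strand, so reads in these overlaps cannot be told apart.

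Taken as a sum, the members held their share of the transcriptome through the first stage, and held much less from MCE2 on. Their summed level was 1173 to 1242 TPM in Control and 1229 to 1280 TPM at MCE1. It was 696 to 796 TPM at MCE2, 482 to 512 TPM at Day4, 500 to 559 TPM at Day6 and 468 to 524 TPM at Day8. Trp53 and Parp1 weigh most in this sum, and they moved in opposite directions at MCE1. Trp53 had means of 289 TPM in Control, 210 at MCE1 and 49.4 at Day8, and Parp1 of 133, 191 and 85.4. The sum is therefore not a typical member's course. Of the 39 tested members, 26 had their highest mean at MCE1 and 11 in Control, while 17 had their lowest at Day8 and 13 at Day4. At Day8, 14 members stood below 25% of their Control mean, 8 at 25 to 50%, 15 at 50 to 100%, and 2 at or above 100%, of which Fancc varied too widely between libraries to be read.

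**Figure D1:**
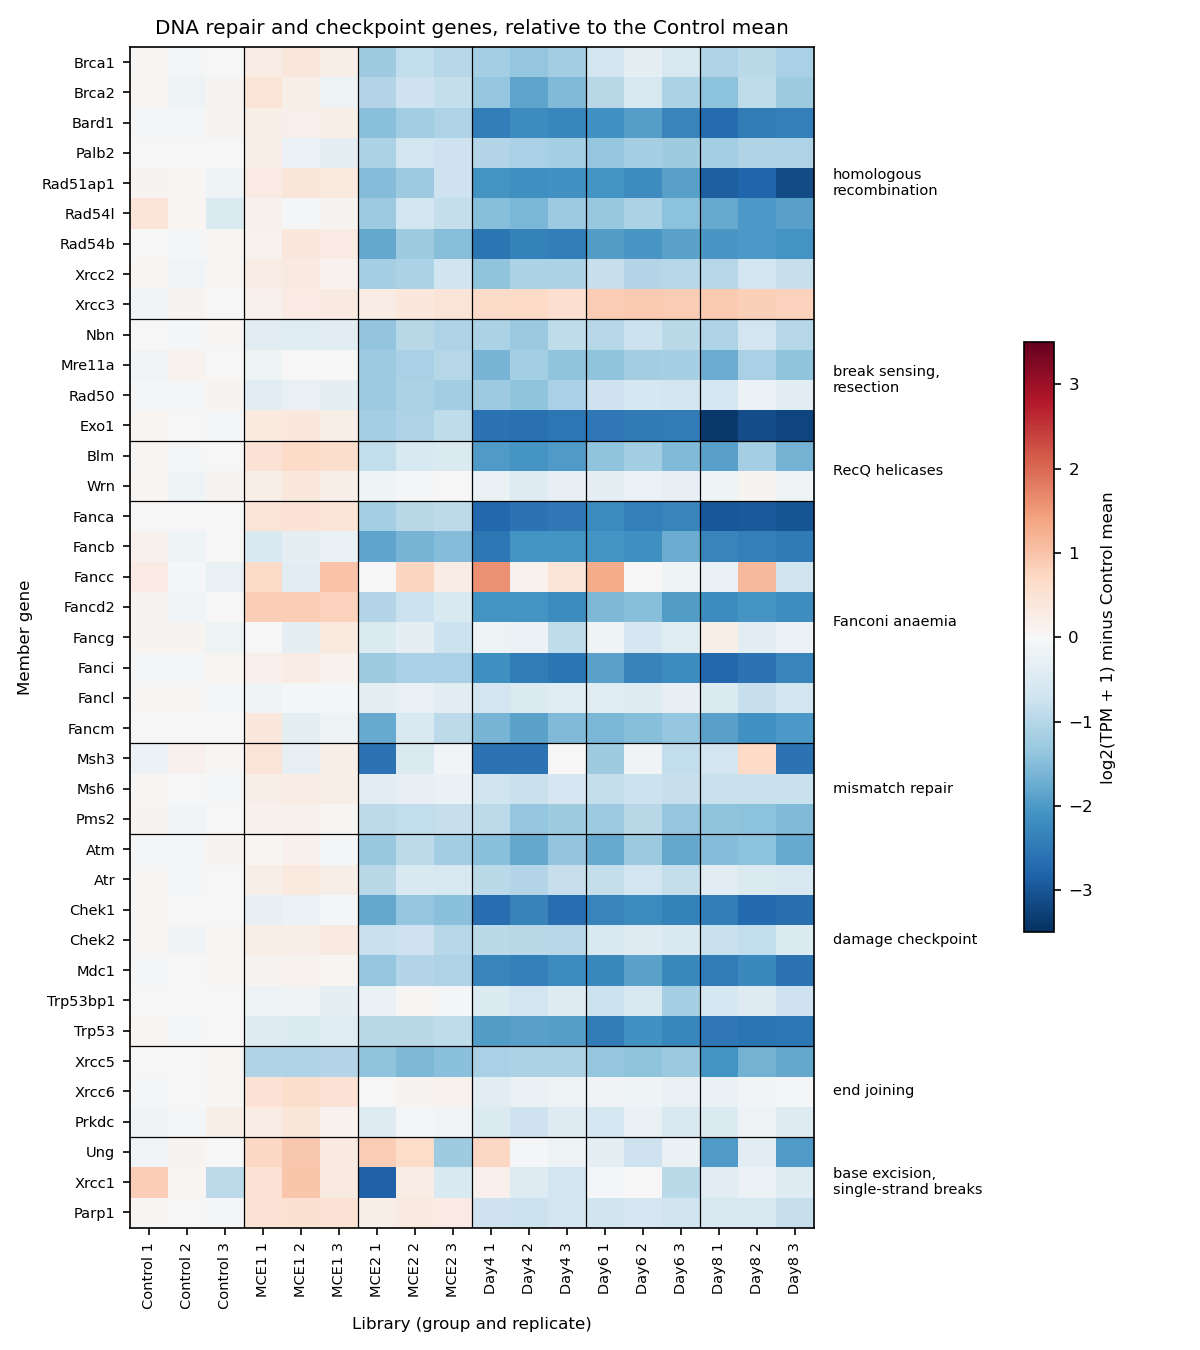
Each row is 1 of the 39 tested members, ordered by pathway, and each column 1 library; the colour is log2(TPM + 1) minus the Control mean of that gene. Most rows are pale red or white at MCE1 and blue from MCE2 on, Xrcc3 alone is red in all 3 libraries of each later group, and Msh3, Fancc, Ung and Xrcc1 vary between replicates.

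At MCE1, 11 members were higher than in Control and 5 lower (16 of 39), where 51.4% of all genes were called, 22% higher and 29.4% lower. The member median was 0.20 on the log2 scale and that of all genes -0.06. The calls of Fancd2, Fanca, Blm, Msh6, Xrcc6 and Parp1 (higher) and of Trp53, Xrcc5 and Rad50 (lower) held under every alternative. Those of Brca1, Chek2, Exo1, Wrn, Xrcc3, Nbn and Fancb were each lost under at least 1 (adjusted p = 0.0525 to 0.241 where lost). The split depended on scaling: it was 18 higher and 4 lower after median-ratio scaling and 17 higher and 4 lower after quantile normalization. The split of all genes moved too, from 2799 higher and 3727 lower to 3622 and 3052 after median-ratio scaling and to 3381 and 3160 after quantile normalization. Without MCE1 replicate 2, 10 members were called. The 3 libraries of both groups did not overlap for 26 of 39 members, where 65.2% of all genes did not.

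From MCE1 to MCE2, 33 of 39 members fell and none rose, where 42.8% of all genes were called and 25.2% were called lower. The member median was -1.02 and that of all genes -0.05. The ranges did not overlap for 33 members, where those of 55.6% of all genes did not. The 6 members not called were Xrcc3, Trp53bp1, Fancc, Fancg, Msh3 and Ung, and 29 of the 33 calls held under every alternative. Those of Xrcc1, Fancl, Prkdc and Wrn did not (adjusted p = 0.0507 to 0.383 where lost). After median-ratio scaling and after quantile normalization Xrcc3 was called higher in this step (adjusted p = 0.0475 and 0.023). From MCE2 to Day4, 23 members fell further and 2 rose (Xrcc3 and Xrcc5), where 51.6% of all genes were called, 22% lower and 29.6% higher. The calls of Fancm, Prkdc, Rad54l, Pms2, Atm and Wrn in that step were lost under some alternatives (adjusted p = 0.0526 to 0.212 where lost).

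From Day4 to Day6, 9 members rose, 1 fell (Trp53) and 29 were not called, where 25.7% of all genes were called, 14.5% higher and 11.2% lower. The members' share of calls was thus near that of all genes. Brca1, Rad50, Blm and Chek2 kept their call as higher under every alternative, and Xrcc3, Rad54b, Brca2, Fancd2 and Fanca did not (adjusted p = 0.053 to 0.184 where lost). With the 6 libraries of Day4 and Day6 fitted alone, 5 members were called, and after quantile normalization 8 were higher and 3 lower. From Day6 to Day8, 10 members fell and none rose, where 21.7% of all genes were called, 11.6% lower and 10.1% higher. Brca1, Rad51ap1, Exo1 and Fanca kept that call throughout, and Bard1, Xrcc5, Fancl, Trp53, Rad54l and Fancd2 did not (adjusted p = 0.0504 to 0.231 where lost). With those 6 libraries alone 4 members were called, without Day6 replicate 1 there were 6, and both scalings gave 2 higher and 11 lower.

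Against Control, 29 members were lower and 2 higher (Xrcc3 and Parp1) at MCE2, where 62.5% of all genes were called, 39.1% lower and 23.4% higher, and the ranges of 31 members did not overlap (69.3% of all genes). At Day8, 32 were lower and 1 higher (Xrcc3), where 71.4% were called, 39.7% lower and 31.7% higher, and the ranges of 34 members did not overlap (72.5% of all genes). These comparisons share the Control libraries with that of MCE1. At MCE2 the calls of Fancl, Msh6 and Fancg were each lost under at least 1 alternative (adjusted p = 0.0635 to 0.441 where lost). At Day8 those of Prkdc and Ung were (adjusted p = 0.051 to 0.141 where lost). The member median at Day8 was -1.19 and that of all genes -0.11. Median-ratio scaling moved the median of all genes by 0.17 at MCE2 and 0.11 at Day8, and the member medians were then -0.75 and -1.08.

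**Figure D2:**
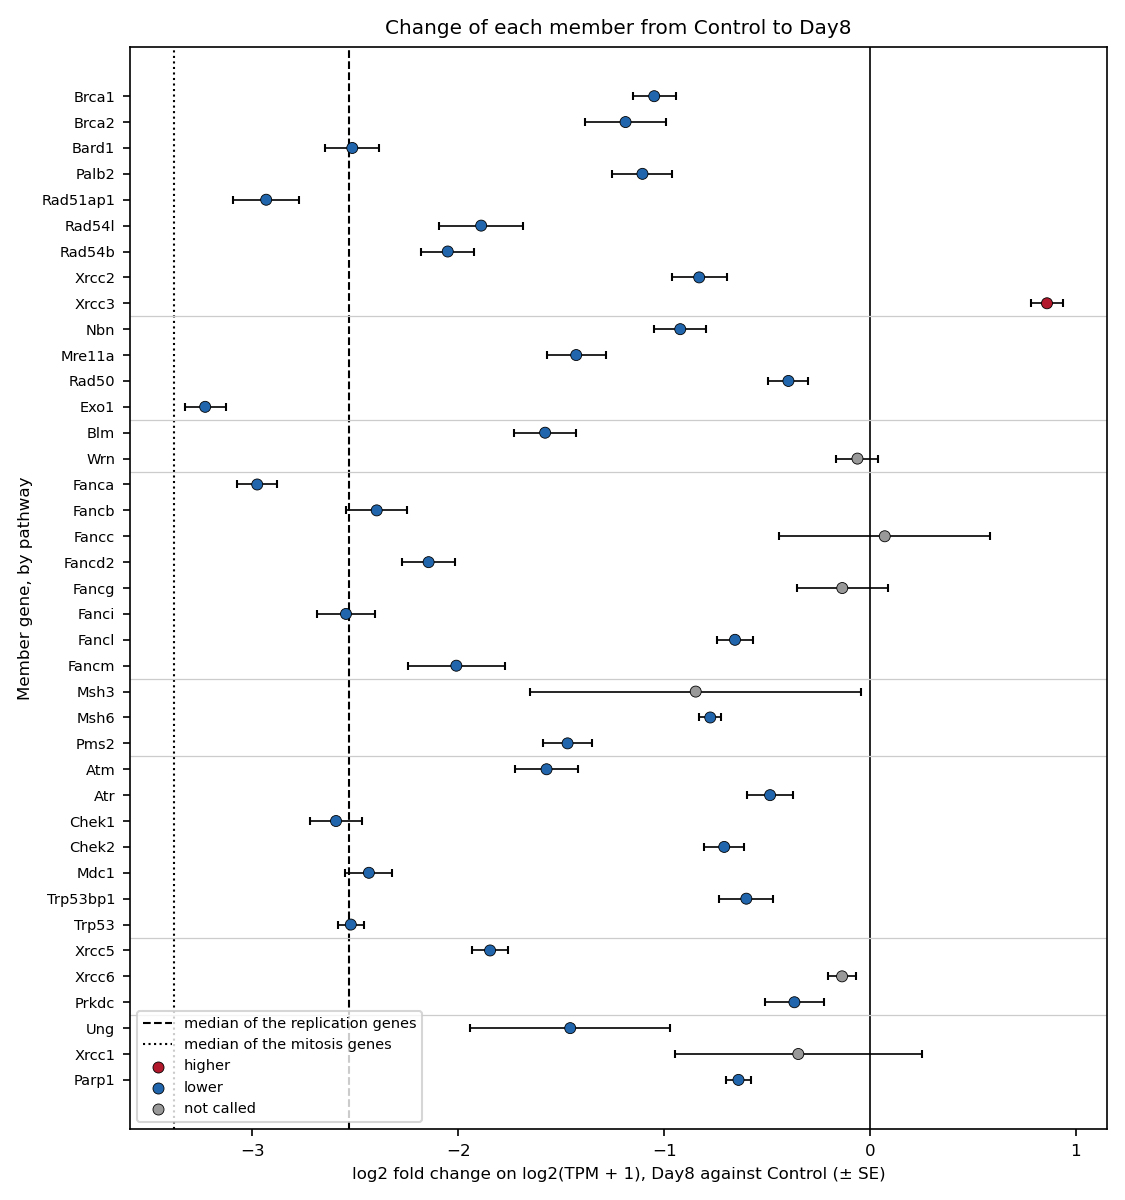
Log2 fold change of each tested member from Control to Day8 on log2(TPM + 1), with its standard error, by pathway; blue points were called lower, red higher and grey not called, and the dashed and dotted lines are the medians of 19 replication genes (-2.53) and 15 mitosis genes (-3.38). The members spread from -3.23 (Exo1) to 0.86 (Xrcc3), with 12 members of 4 pathways at -2 or below.

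In homologous recombination, all 9 members were tested and 8 fell from MCE1 to MCE2. At Day8 the same 8 were lower than in Control while Xrcc3 was higher. Of all genes, 25.2% were called lower from MCE1 to MCE2, and 39.7% lower and 31.7% higher at Day8. Brca1 encodes the ubiquitin ligase that directs repair towards recombination, and lies at chr11:101350078-101413269 in mm9, the build of the files. Brca1 stood at 26.4, 24.6 and 25.3 TPM in Control, 30.8, 33.6 and 29.4 at MCE1, 10.2, 13.6 and 12.1 at MCE2, and 10.5, 9.30 and 10.3 at Day4. It then stood at 15.9, 20.1 and 16.9 TPM at Day6 and 11.5, 12.8 and 11.1 at Day8. The Day6 libraries thus lay above all MCE2, Day4 and Day8 libraries and below all Control libraries. The fall to MCE2 was 1.32 ± 0.11 (SE) on the log2 scale (adjusted p = 5.42e-08), the change from Day4 to Day6 was 0.75 ± 0.11 (adjusted p = 7.41e-05) and that from Day6 to Day8 was -0.54 ± 0.11 (adjusted p = 0.00189).

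Bard1, whose protein is the obligate partner of BRCA1 in the ligase, lies at chr1:71074109-71149546. It went from 8.84, 8.70 and 9.68 TPM in Control through 10.6, 10.4 and 10.7 at MCE1 to 2.62, 3.35 and 3.72 at MCE2. It was at 0.876, 1.19 and 1.05 TPM at Day4 and 0.553, 0.837 and 0.911 at Day8. No later library overlapped Control, and the difference at Day8 was -2.52 ± 0.13 (adjusted p = 4.64e-11). Brca2, a central mediator of recombination, and Palb2, which links BRCA1 to BRCA2, differed by -1.19 ± 0.20 and -1.11 ± 0.15. Brca2 was at 5.84 to 7.21 TPM in Control and 1.85 to 3.17 at Day8, and Palb2 at 4.45 to 4.59 and 1.41 to 1.66.

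Genes that act at the strand pairing step fell too. Rad51ap1, which encodes a stimulator of strand pairing, stood at 33.2, 32.4 and 28.2 TPM in Control, 38.5, 42.4 and 40.1 at MCE1, 10.2, 12.4 and 18.6 at MCE2 and 3.32, 3.70 and 2.68 at Day8. Its Day8 difference from Control was -2.93 ± 0.16 (adjusted p = 8.66e-11), and the change from MCE2 to Day4 and that from Day6 to Day8 were each called lower (-0.94 ± 0.16 and -0.87 ± 0.16). Rad54b and Rad54l encode DNA translocases of recombination. Rad54b fell by 1.78 ± 0.13 at MCE2, the largest step of any tested member there, and differed by -2.05 ± 0.13 at Day8. Rad54l varied more in Control (15.0, 11.2 and 7.19 TPM) and was at 1.93 to 2.46 TPM at Day8 (-1.89 ± 0.20).

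Xrcc2 and Xrcc3, which both encode accessory proteins of recombination, moved in opposite directions. Xrcc2 was at 15.0, 13.1 and 14.6 TPM in Control, 5.75, 6.02 and 8.35 at MCE2 and 6.57, 8.50 and 7.72 at Day8 (-0.83 ± 0.13, adjusted p = 4.05e-05). Xrcc3 (chr12:113041403-113052090) was at 12.9, 14.9 and 14.1 TPM in Control, 15.6, 17.3 and 17.6 at MCE1, 16.7, 18.5 and 19.4 at MCE2 and 22.6, 23.1 and 21.7 at Day4. It was at 26.5, 27.4 and 26.4 TPM at Day6 and 27.3, 25.7 and 25.3 at Day8, so that no library after Control lay within the Control range. Its Day8 difference was 0.86 ± 0.08 (adjusted p = 3.87e-08). Xrcc3 overlaps Klc1 on the opposite strand, and Klc1 was at 19.1 ± 2.26 TPM in Control and 18.6 ± 8.42 at Day8 (SD, n = 3) and was not called in any of the 7 comparisons.

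**Figure D3:**
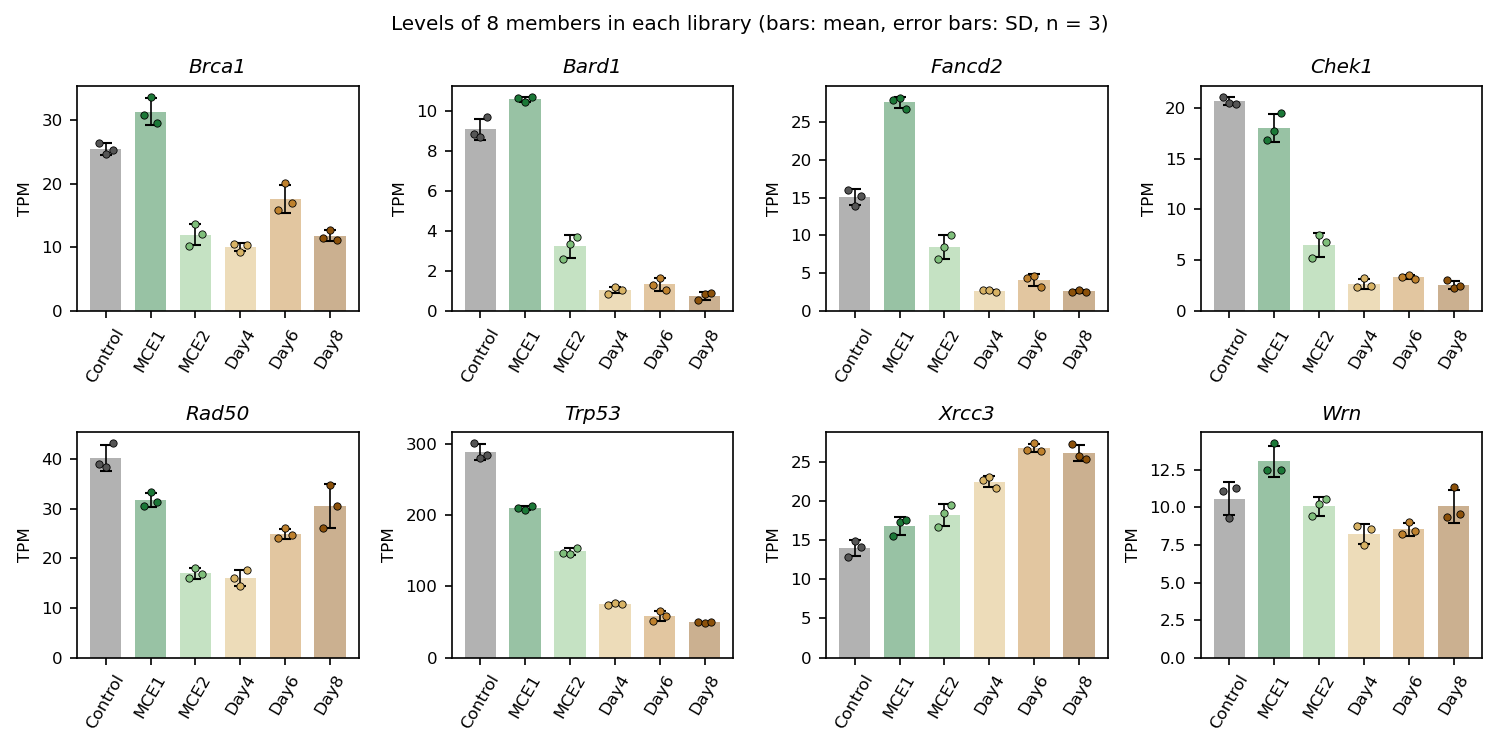
TPM of 8 members in each library by group; points are libraries, bars group means and error bars SD (n = 3), with every axis starting at 0. Brca1, Bard1, Fancd2 and Chek1 drop between MCE1 and MCE2, Rad50 and Brca1 are higher again at Day6, Trp53 declines through all groups, Xrcc3 rises and the Wrn libraries of Day8 overlap those of Control.

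Among genes of break sensing and end resection, all 4 tested members fell at MCE2 and were lower at Day8 than in Control. Of all genes, 25.2% were called lower from MCE1 to MCE2 and 39.7% at Day8. Rad50, Mre11a and Nbn encode the MRN complex that binds broken ends. Rad50 stood at 39.1, 38.5 and 43.2 TPM in Control, 30.5, 33.3 and 31.5 at MCE1, 16.0, 18.1 and 16.9 at MCE2, and 16.0, 14.4 and 17.6 at Day4. It was then at 24.1, 26.1 and 24.7 TPM at Day6 and 26.1, 34.9 and 30.6 at Day8. The rise from Day4 to Day6 was 0.62 ± 0.10 (adjusted p = 0.000212), and the Day8 level remained below Control (-0.40 ± 0.10, adjusted p = 0.00174). Mre11a stayed low, at 22.0, 25.6 and 23.2 TPM in Control and 6.38, 10.2 and 8.19 at Day8 (-1.43 ± 0.14), and Nbn went from 36.9 to 39.8 TPM to 17.5 to 23.7 TPM (-0.92 ± 0.13).

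Exo1, the exonuclease of long-range resection and of mismatch repair, had the lowest Day8 value of all tested members relative to Control. It was at 21.0, 19.9 and 19.1 TPM in Control, 25.8, 26.3 and 23.4 at MCE1, 8.21, 8.98 and 10.3 at MCE2, 2.52, 2.45 and 2.65 at Day4 and 1.02, 1.44 and 1.27 at Day8. The Day8 difference was -3.23 ± 0.10 (adjusted p = 7.12e-14), and the 3 falls at MCE2, Day4 and Day8 were each called. Both RecQ helicases, which unwind recombination intermediates, were measured. Blm rose at MCE1 (16.0 to 17.2 TPM in Control, 24.0 to 27.0 at MCE1, 0.60 ± 0.15, adjusted p = 0.00377) and was at 3.24 to 3.48 TPM at Day4, with a rise of 0.62 ± 0.15 to Day6. The position listed as its end differed by library, with another end in all Day4 and Day8 libraries and in Day6 replicate 3. Wrn stayed between 7.48 and 14.3 TPM in all libraries and was at 9.31 to 11.3 TPM in Control and 9.35 to 11.4 at Day8 (-0.06 ± 0.10, adjusted p = 0.606).

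Of the 8 Fanconi members, 6 fell at MCE2 and 6 were lower at Day8, where 25.2% and 39.7% of all genes were called lower. Fancd2 and Fanci encode the ID2 clamp that is ubiquitinated at crosslinks. Fancd2 (chr6:113481676-113547014) had the largest rise of any tested member at MCE1, from 16.0, 13.9 and 15.2 TPM in Control to 27.9, 28.1 and 26.7 (0.84 ± 0.13, adjusted p = 4.52e-05). It was at 6.92, 8.48 and 9.99 TPM at MCE2, 2.73, 2.79 and 2.46 at Day4 and 2.49, 2.84 and 2.54 at Day8 (-2.14 ± 0.13 against Control, adjusted p = 3e-10). Fanci was at 13.0, 13.0 and 14.2 TPM in Control, 15.2, 16.4 and 14.8 at MCE1 and 1.14, 1.40 and 1.93 at Day8 (-2.55 ± 0.14), with the rise at MCE1 not called (adjusted p = 0.286). Both thus ended without overlap with Control.

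The Fanconi core complex, the ligase that modifies ID2, was uneven. Fanca went from 18.5, 18.6 and 18.1 TPM in Control through 25.4, 26.6 and 25.8 at MCE1 and 7.54, 8.93 and 9.36 at MCE2 to 1.46, 1.52 and 1.41 at Day8 (-2.98 ± 0.10, adjusted p = 1.42e-13). Fancb, another core subunit, differed by -2.40 ± 0.15 at Day8, and Fancm, the translocase that recruits the core, by -2.01 ± 0.24. Fancl, the catalytic subunit, changed least of the 6: it was at 22.6 to 24.8 TPM in Control and 13.3 to 16.4 at Day8 (-0.66 ± 0.09, adjusted p = 4.21e-06). Fancg was at 7.59 to 9.51 TPM in Control and 6.48 to 10.2 at Day8 (-0.13 ± 0.22), and the ranges overlapped. Fancc lay between 0 and 3.88 TPM, with replicates of a group far apart, and no direction can be read from it.

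In mismatch repair, Msh6 encodes a protein that recognises mismatches, and was at 76.2, 73.7 and 72.8 TPM in Control, 85.6, 89.5 and 85.2 at MCE1, 57.5, 61.2 and 63.0 at MCE2 and 43.2, 43.2 and 42.4 at Day8. The Day8 difference was -0.78 ± 0.05 (adjusted p = 2.11e-09). Pms2, part of the MutLα nuclease, differed by -1.47 ± 0.12 at Day8, from 18.1 to 20.9 TPM down to 5.93 to 6.63 TPM. Msh3, which encodes a protein that recognises small loops, ranged from 0 to 8.73 TPM and was listed at 0 in 4 libraries.

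All 7 damage checkpoint members were lower at Day8 than in Control, and 6 fell at MCE2. Of all genes, 39.7% were called lower at Day8 and 25.2% from MCE1 to MCE2. Chek1, the kinase that ATR activates at stalled forks, was at 21.1, 20.5 and 20.4 TPM in Control, 16.8, 17.7 and 19.5 at MCE1, 5.19, 7.45 and 6.78 at MCE2, 2.42, 3.26 and 2.43 at Day4 and 3.04, 2.30 and 2.45 at Day8. The Day8 difference was -2.59 ± 0.13 (adjusted p = 2.23e-11). Chek2, the kinase downstream of ATM, was at 19.3 to 22.1 TPM in Control, 9.91 to 10.5 at Day4, 14.0 to 15.0 at Day6 and 11.05 to 14.6 at Day8 (-0.71 ± 0.10). The upstream kinases differed in size: Atm went from 18.6 to 21.0 TPM to 5.00 to 6.61 TPM (-1.57 ± 0.15), and Atr from 12.9 to 13.8 TPM to 8.78 to 9.97 TPM (-0.49 ± 0.11).

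Of the mediators that bind chromatin beside a break, Mdc1 fell far and Trp53bp1 little. Mdc1 was at 62.0, 62.5 and 65.4 TPM in Control, 24.0, 30.6 and 29.6 at MCE2 and 10.8, 12.4 and 9.62 at Day8 (-2.43 ± 0.11, adjusted p = 1.34e-11). Trp53bp1, whose protein favours end joining over resection, was at 25.4, 25.5 and 25.4 TPM in Control, 21.6, 26.1 and 24.2 at MCE2 and 16.1, 18.4 and 14.9 at Day8. It was not called from MCE1 to MCE2 (0.12 ± 0.13, adjusted p = 0.491) and differed by -0.60 ± 0.13 at Day8 (adjusted p = 0.000673).

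Trp53, the gene of the p53 transcription factor, was the most abundant member in Control and was called lower in all 7 comparisons. It lies at chr11:69393861-69405375. Its levels were 301, 281 and 285 TPM in Control, 210, 207 and 213 at MCE1, 147, 146 and 154 at MCE2, and 74.2, 76.7 and 75.5 at Day4. They were 51.8, 65.9 and 58.1 TPM at Day6 and 50.2, 48.6 and 49.5 at Day8. No 2 neighbouring groups overlapped, and the Day8 difference was -2.52 ± 0.06 (adjusted p = 7.48e-15). The last step, from Day6 to Day8 (-0.23 ± 0.06, adjusted p = 0.016), lost its call without Day6 replicate 2 (-0.15, adjusted p = 0.0601).

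In end joining, Xrcc5 and Xrcc6 encode Ku80 and Ku70, which form the ring that caps broken ends, and they parted at the first stage. Xrcc5 (chr1:72353995-72441527) was at 43.8, 43.7 and 46.1 TPM in Control and 21.0, 20.6 and 21.2 at MCE1 (-1.05 ± 0.09, adjusted p = 4.76e-08), the largest fall of any tested member there. It was at 19.7 to 20.1 TPM at Day4 and 9.72, 13.4 and 12.2 at Day8 (-1.85 ± 0.09 against Control). Xrcc6 was at 41.3, 43.8 and 44.1 TPM in Control and 61.1, 66.1 and 61.2 at MCE1 (0.53 ± 0.07, adjusted p = 5.4e-06), and at 43.8, 45.7 and 47.1 at MCE2. At MCE2 it was not called against Control (0.08 ± 0.07, adjusted p = 0.323), but was called higher after median-ratio scaling (0.28, adjusted p = 0.00188) and quantile normalization (0.24, adjusted p = 0.00434). At Day8 it was at 36.2, 40.5 and 40.7 TPM, not called against Control (-0.14 ± 0.07, adjusted p = 0.0814). Prkdc, the DNA-dependent kinase that Ku recruits, was at 8.87 to 11.2 TPM in Control and 6.64 to 8.43 at Day8; its call (-0.37 ± 0.14, adjusted p = 0.0317) was lost after median-ratio scaling (adjusted p = 0.0732), with the 6 libraries alone (0.051), and without Control replicate 3, Day8 replicate 1 or Day8 replicate 3 (up to 0.141).

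**Figure D4:**
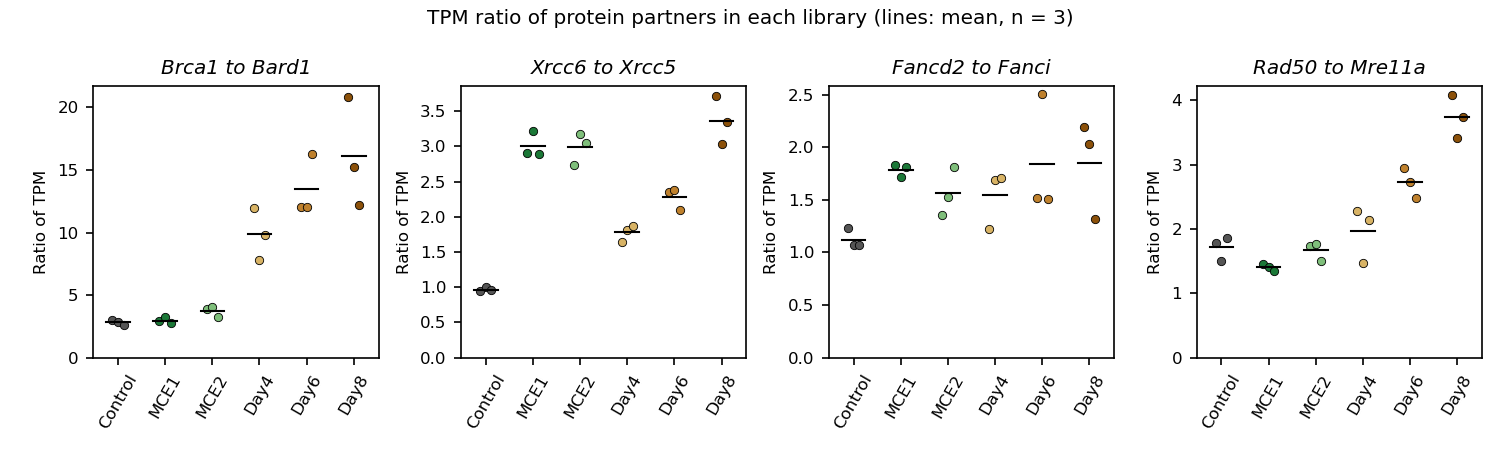
TPM ratio of the genes of 4 protein pairs in each library by group; points are libraries and lines group means (n = 3). The Xrcc6 to Xrcc5 and Fancd2 to Fanci ratios are higher at MCE1 than in Control. The Brca1 to Bard1 ratio rises slightly at MCE2 and further from Day4, and the Rad50 to Mre11a ratio rises from Day6.

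Because TPM is corrected for length, the levels of partner genes can be set against each other, and 4 pairs were compared. The ratio of Xrcc6 to Xrcc5 was 0.97 ± 0.03 in Control (SD, n = 3), 3.00 ± 0.18 at MCE1, 1.78 ± 0.12 at Day4 and 3.36 ± 0.35 at Day8. That of Brca1 to Bard1 was 2.81 ± 0.19 in Control, 2.96 ± 0.24 at MCE1, 3.75 ± 0.43 at MCE2, 9.87 ± 2.09 at Day4 and 16.1 ± 4.36 at Day8. The late Bard1 values are near 1 TPM, so these ratios are imprecise. That of Rad50 to Mre11a was 1.71 ± 0.19 in Control and 3.75 ± 0.34 at Day8. That of Fancd2 to Fanci was 1.12 ± 0.09 in Control, 1.79 ± 0.06 at MCE1 and 1.85 ± 0.47 at Day8. The Day8 and Control ratios did not overlap in any of the 4 pairs. Between these groups the levels of 72.5% of all single genes did not overlap, and ratios of other genes were not examined. The exact 2-sided permutation test gave p = 0.1 for each pair, the smallest p that 3 against 3 allows (0.1 after Benjamini-Hochberg adjustment over the 4).

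In base excision and single-strand break repair, Parp1, which senses strand breaks and makes poly(ADP-ribose), lay second to Trp53 in Control. Parp1 was at 139, 131 and 130 TPM in Control, 190, 194 and 190 at MCE1, 157, 164 and 162 at MCE2, 79.5, 78.5 and 85.6 at Day4 and 89.3, 90.7 and 76.0 at Day8. It was one of the 2 members called higher than Control at MCE2 (0.27 ± 0.06, adjusted p = 0.00113; 3 were after median-ratio scaling and 4 after quantile normalization), and its main fall came from MCE2 to Day4 (-0.98 ± 0.06, adjusted p = 3.67e-09). Ung, the uracil glycosylase, was at 2.67 to 3.19 TPM in Control and was listed at 0, 1.98 and 0 at Day8; its call was lost without Day8 replicate 1 or 3. Xrcc1, the scaffold of single-strand break repair, was at 45.9, 26.1 and 12.8 TPM in Control, 36.0, 49.9 and 31.0 at MCE1 and 2.66, 30.1 and 17.1 at MCE2. The replicates of Xrcc1 thus spread more widely than the groups. Its call from MCE1 to MCE2 (-1.62 ± 0.60, adjusted p = 0.0399) was lost without MCE2 replicate 1 (-0.72, adjusted p = 0.221), and that library lists another end for the gene. The call was also lost without any 1 of the MCE1 libraries, with no filter, after quantile normalization and with the 6 libraries alone (adjusted p = 0.0547 to 0.122).

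Another 94 genes of repair and the checkpoint, from a list by pathway, were examined, of which 91 were tested. From MCE1 to MCE2, 48 fell and 7 rose, and at Day8 against Control 48 were lower and 10 higher, with medians of -0.45 and -0.50. Of all genes, 25.2% were called lower and 17.7% higher in the first of these comparisons and 39.7% and 31.7% in the second, and the Day8 counts of each pathway below are to be read against the latter. In recombination (19 tested), 13 were lower and 1 higher at Day8. In the checkpoint (15 tested), 11 were lower and none higher. Clspn, the adaptor of CHK1 activation, differed by -2.94 ± 0.10 and Topbp1, the activator of ATR, by -2.37 ± 0.07. H2ax, the histone that is phosphorylated beside breaks, was at 182 to 185 TPM in Control, 521 to 564 at MCE1 and 51.4 to 66.0 at Day8.

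Nucleotide excision repair (14 tested), which removes bulky lesions, had 7 lower and 3 higher at Day8 and a median of -0.24, where 39.7% of all genes were lower and 31.7% higher. Ercc1, part of the nuclease that cuts beside the lesion, was at 132, 116 and 122 TPM in Control and 34.5, 31.7 and 34.5 at MCE1, and differed by -2.98 ± 0.15 at Day8. Other base excision genes (16 tested) had 3 lower and 4 higher at Day8. The glycosylases Neil3 and Neil1 went apart: Neil3 was at 22.4 to 25.4 TPM in Control and 1.57 to 2.91 at Day8 (-3.08 ± 0.16), and Neil1 at 6.80 to 8.16 and 19.4 to 27.2 (1.54 ± 0.12). Other end joining genes (6 tested) had 2 lower and none higher, led by the polymerase gene Polm (-2.06 ± 0.15), and other Fanconi genes (8 tested) 5 lower and none higher. Other mismatch repair genes (4 tested) had 3 lower, translesion synthesis genes (6 tested) 4 lower and 1 higher, and direct reversal genes (3 tested) 1 higher.

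Beside the fall of Trp53, 18 of 19 known p53 target genes were tested. At MCE1, 12 were lower and 1 higher than in Control, where 29.4% of all genes were called lower and 22% higher. At Day8, 9 were lower and 4 higher, where 39.7% and 31.7% of all genes were. Cdkn1a, the CDK inhibitor p21, was at 21.5, 15.3 and 14.3 TPM in Control and 4.13, 0 and 4.46 at MCE1, and was listed at 0 in 2 of 3 Day8 libraries. Btg2 and Gadd45a, both growth-arrest genes, were higher at Day8 (2.65 ± 0.11 and 2.27 ± 0.10). Over the 18 tested targets the Day8 changes ran from -3.95 to 2.65, with a median of -0.34. Mdm2, the ligase that degrades p53, was at 3487, 3244 and 3512 TPM in Control, 1773, 2273 and 2128 at MCE2 and 3191, 3474 and 2986 at Day8.

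Proliferation genes moved over the same steps. Of 19 replication genes, 10 were higher and 1 lower at MCE1, 18 fell at MCE2 and 18 were lower at Day8. All 15 mitosis genes fell at MCE2 and were lower at Day8. Of all genes, 22% were called higher and 29.4% lower at MCE1, 25.2% lower from MCE1 to MCE2, and 39.7% lower at Day8. From Day4 to Day6, 5 replication and 7 mitosis genes rose and none fell, where 14.5% of all genes were called higher and 11.2% lower. From Day6 to Day8, 16 and 14 fell and none rose, where 11.6% of all genes were called lower and 10.1% higher. Mki67, a marker of cycling cells, was at 121 to 126 TPM in Control and 5.01 to 7.60 at Day8, and Pcna, the replication clamp, at 519 to 563 and 101 to 105. The 15 mitosis genes summed to 1794 to 1891 TPM in Control, 2521 to 2602 at MCE1 and 178 to 194 at Day8. Differences from Control are thus relative to a group in which these genes stood well above their Day8 level. The member median at Day8 (-1.19) lay nearer 0 than the medians of the replication (-2.53) and mitosis (-3.38) genes. These medians are on log2(TPM + 1), which understates changes of low genes. With a pseudocount of 0.1 the member median was -1.53, and the medians of the replication and mitosis genes were not taken in that setting. The part of the proliferation genes in the result for the repair genes was not tested.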

How the data were processed

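Levels of polyadenylated RNA in 18 libraries are gene-level TPM values deposited by the authors, 1 table per library. Per the submitters' processing notes, FastQC, cutadapt, HISAT2, StringTie and the mm9 build were used; versions and the annotation are not given in the sources used here. The listed TPM values sum to 869497 to 880273 per library, and the tables keep no read counts. Of 25209 genes, 12 listed at another locus in Control replicate 1 were left out. The rest were put on log2(TPM + 1), on which every fold change stands, so that changes of low genes are understated. The 12695 genes that reached 1 TPM in 3 or more libraries were fitted with limma 3.58.1 in R 4.3.3 (trend, robust), with 1 mean per group over all 18 libraries (12 residual degrees of freedom), and checked on simulated data. P-values were Benjamini-Hochberg adjusted over the 12695 genes and called under 0.05; a group's range lists its 3 libraries. Groups and replicate numbers come from the sample titles. Alternatives were a pseudocount of 0.1, no filter, a filter of 5 TPM, median-ratio scaling, quantile normalization, the 6 libraries of a comparison alone, a replicate block and leaving out each library. Another, added after seeing the data, left out 58 genes listed at 0 beside 2 high values. Members and lists were chosen with earlier results of these data known. Any member could be named; from other lists up to 4 called genes with the largest change in a comparison, Cdkn1a, Mdm2 and the cell cycle genes Mki67, Pcna, Mcm2 and Top2a. Strands are from GENCODE M21 and promoters from RefSeq (GRCm38.p6); genes lie at the files' own mm9 positions. Some results are not reported here.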

Additional observations from a re-analysis of the deposited data

How the results depend on the processing

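Of 158 member calls over the 7 comparisons, 125 held under every alternative run, and 86 of 115 values not called stayed so. Fitting the 6 libraries of a comparison alone moved 2 counts of called members by over 1.5 times, to 5 for Day6 against Day4 (10 otherwise) and to 4 for Day8 against Day6 (10 otherwise); over all genes the latter went from 2761 to 1072. Leaving out 1 library at a time gave 10 to 15 called members for MCE1 against Control (lowest without MCE1 replicate 2), 29 to 33 for MCE2 against MCE1, 19 to 27 for Day4 against MCE2 and 7 to 8 for Day6 against Day4. It gave 6 to 10 for Day8 against Day6 (lowest without Day6 replicate 1), 30 to 32 for MCE2 against Control, 31 to 33 for Day8 against Control and 34 to 36 in the F test. One direction turned: Wrn at MCE2 against Control was -0.06 and not called, and 0.21 after quantile normalization (adjusted p = 0.0369). The cause was not tested.

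Replicate numbers did not pair the libraries: none of 45 same-numbered pairs of different groups had deviations correlated over 0.1 (range -0.07 to 0.09), and 8 of 18 libraries correlated best with their own number. With a replicate block, 15, 33, 23, 10, 9, 31 and 33 members were called in the 7 comparisons in the order above (adjacent steps, then MCE2 and Day8 against Control) and 35 in the F test. Depth is unknown, so no limit of detection can be given for members listed at 0, such as Msh3, Ung and Rbbp8.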

Other observations

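Mdm2, named above as the ligase that degrades p53, had some of the highest TPM values in these libraries. Gene copy number in this line was not tested. It ranked between 10 and 65 of 25197 genes in the 18 libraries, with levels from 1773 to 3512 TPM. Its neighbour Slc35e3 (mm9 chr10:117170734-117183414), chosen after its values were seen, ranked between 61 and 99, at 1195 to 1758 TPM. Of the other 12 genes listed within 500000 bases of Mdm2 (chr10:117125931-117147814), Rap1b was the highest, at 135 to 223 TPM, followed by Nup107 at 20.3 to 88.8 TPM and Yeats4 at 29.2 to 72.2 TPM.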
